A study of Mus musculus with 10 samples.

Results

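The data concern 10 genes for secreted inflammatory signals, measured in sorted hippocampal cells of adult Sox1-GFP mice. They are the interleukin genes Il1a, Il1b and Il6, the tumour necrosis factor gene Tnf, and the chemokine genes Ccl2, Ccl3, Ccl4, Ccl5, Ccl12 and Cxcl2. They were looked up by symbol among 19965 named genes, and all 10 were measured, each by 1 probe set. Where a gene has several probe sets, the one with the highest mean over all samples was to stand for it, so for these genes nothing was chosen by that measured mean. The list itself was selected on earlier results of these samples, which included a wide gap in Il1a between the fractions.

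All animals were heterozygous for Sox1-GFP, a reporter whose green fluorescence marks cells in which the neural progenitor gene Sox1 is active. Hippocampi were dissociated with papain, and cells were sorted into a fraction with high GFP, which the labels call stem and progenitor cells of the subgranular zone, and a fraction without GFP. Old mice, aged 1 year 9 months, gave 4 GFP-positive samples. Young mice gave 3 GFP-positive samples, at 7 (replicate 1), 5 (replicate 2) and 4 months (replicate 3), and 3 GFP-negative ones, at 7 months (replicates 1 and 2) and 4 months (replicate 3). No sample held the GFP-negative fraction of old mice. The labels say neither whether both fractions came from the same mouse nor whether animals were pooled, though replicate 2 differs in age between the fractions. RNA was amplified and read on Affymetrix Mouse Gene 1.0 ST arrays, and every level below is a log2 value after Robust Multichip Average (RMA), so that a difference of 1 is a doubling. These values come with no detection call, so a low one cannot be told from no expression, and levels of different genes are not set against each other.

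Interleukin 1 alpha, interleukin 1 beta and tumour necrosis factor start inflammatory responses: their receptors activate the transcription factor NF-kappaB, which in turn switches on many cytokine and chemokine genes. Chemokines guide leukocytes along concentration gradients through G protein-coupled receptors. In the brain, microglia, the resident macrophages, are a main source of these signals, and astrocytes and endothelium respond to them and can make some of the chemokines. Several of these genes are also switched on within hours when tissue is cut and dissociated.

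Stretches of 150 bases just before the transcription start are shown for both interleukin 1 genes, whose sort differences were among the larger ones below. Those of Cxcl2 and Il6, which carry similar NF-kappaB letters, are shown too. Cxcl2 passed the sort test below, while Il6 values cannot be told from no expression, so the pair says nothing on what these letters do. All these stretches are RefSeq sequences of the build GRCm38.p6, 5′ to 3′ on the gene's strand. In the order shown, they lie at chr2:129309973-129310122 and chr2:129371140-129371289 (both minus strand) and at chr5:90903749-90903898 and chr5:30012964-30013113 (both plus strand). Capitals mark TATAAA, the core of a TATA box, and GGG followed by any 5 bases and CC, the loose form of a kappaB site, on either strand, and overlapping matches run together.
Il1a: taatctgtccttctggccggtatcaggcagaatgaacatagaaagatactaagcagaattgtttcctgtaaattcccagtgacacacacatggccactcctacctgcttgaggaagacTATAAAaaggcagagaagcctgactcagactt
Il1b: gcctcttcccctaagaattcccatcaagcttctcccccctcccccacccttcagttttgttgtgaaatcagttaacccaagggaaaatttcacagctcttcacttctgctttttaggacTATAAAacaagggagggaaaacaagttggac
Cxcl2: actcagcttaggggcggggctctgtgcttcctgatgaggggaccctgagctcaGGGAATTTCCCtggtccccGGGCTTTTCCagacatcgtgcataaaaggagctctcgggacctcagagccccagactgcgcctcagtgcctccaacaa
Il6: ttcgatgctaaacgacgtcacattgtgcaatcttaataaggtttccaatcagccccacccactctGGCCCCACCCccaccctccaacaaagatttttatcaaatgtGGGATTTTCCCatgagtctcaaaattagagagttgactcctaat

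Promoters of 7 of the 10 genes were in the RefSeq table: Il1a, Il1b, Tnf, Il6, Ccl3, Ccl12 and Cxcl2. In the 250 bases before the start, TATAAA on either strand was found in 4 of them, Il1a, Il1b, Tnf and Ccl12, and in 12.4% of the 32851 windows of the same length in the table. The kappaB letters were found on either strand in 3 of the 7, Tnf, Il6 and Cxcl2, and in 45.8% of all windows. Cxcl2 held GGGAATTTCC and GGGCTTTTCC, and Il6 held GGGATTTTCC. The loose form of a C/EBP site, TTNNGNAA, was found on either strand in 6 of the 7 and in 36.8% of all windows. A match of letters does not show that a factor binds there.

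Before the members, the samples were checked against their labels. Astrocyte markers were higher in young GFP-positive than in young GFP-negative cells for 10 of 10 genes, Gfap and Aqp4 among them, at a median log2 difference of 2.79, and 5 of 10 stem and progenitor markers were higher and 1 lower. Sox1 itself differed by 0.28 (limma, adjusted p = 0.123). Ttr, a transcript of choroid plexus, had 12.59 in young GFP-positive replicate 1 and 12.69 in young GFP-negative replicate 1, and between 5.88 and 9.53 in the other 8 samples. Old replicate 3 had 11.90 for Xist, which marks female cells, against at most 5.69 elsewhere, so the old group holds 1 sample with the female pattern and the young groups none.

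The first comparison asked where these genes stand in the Sox1-GFP sort. In young mice 8 of the 10 were lower in GFP-positive than in GFP-negative cells, by 2.51-fold to 45.5-fold, and 0 were higher (limma, Benjamini-Hochberg adjusted p under 0.05 over all genes). Over all genes 9.30% were lower and 7.68% higher by the same rule. For the same 8 genes every GFP-positive value lay below every GFP-negative one, as it did for 15.0% of all genes. Il6 and Ccl5 did not pass. The median log2 difference of the 10 genes was -2.42, and that of all genes 0.098. These genes were picked with results of these data known, so the count describes them and is no independent evidence.

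Il1a, which encodes a form of interleukin 1 that is active without cleavage and can be released by dying cells, had the widest gap. Its values were 5.36, 6.65, 5.74 and 6.28 in old GFP-positive samples, 4.24, 4.95 and 8.66 in young GFP-positive samples, and 11.41, 11.39 and 11.58 in young GFP-negative samples. The GFP-negative samples lay close together and above all others, while young GFP-positive replicate 3 stood far above its own group. The young GFP-positive mean was 5.95 ± 2.37, against 11.46 ± 0.10 in young GFP-negative cells (SD, n = 3 each), a log2 difference of -5.51 (limma, SE 0.86, adjusted p = 0.000969). Without young GFP-positive replicate 3 it was -6.86, without replicate 1 of that group -4.65, without both replicate 1 samples of the young mice -4.68 and without both samples of 4-month-old mice -6.80, and it passed the test each time.

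Il1b encodes interleukin 1 beta, which needs cleavage by caspase 1. It had 5.97, 6.30, 6.47 and 6.36 in old GFP-positive samples, 6.04, 6.11 and 6.57 in young GFP-positive samples and 9.90, 9.80 and 9.53 in young GFP-negative samples. Unlike Il1a it varied little within any group, and the fractions were far apart. The young GFP-positive mean was 6.24 ± 0.28, against 9.74 ± 0.19 in GFP-negative cells (SD, n = 3 each), 11.3-fold lower (limma, SE 0.18 on the log2 scale, adjusted p = 3.87e-07).

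Tnf encodes tumour necrosis factor, which is made as a membrane protein and shed. Its values were 5.74, 6.002, 6.22 and 5.70 in old GFP-positive samples, 5.44, 5.67 and 6.35 in young GFP-positive samples and 7.98, 8.58 and 8.80 in young GFP-negative samples. Both GFP-positive groups overlapped and the GFP-negative samples lay above them, with a young difference of -2.64 (limma, SE 0.26, adjusted p = 3.32e-05).

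Il6 encodes interleukin 6, a driver of acute-phase and glial responses. It had 3.29, 3.06, 2.66 and 2.85 in old GFP-positive samples, 2.91, 3.52 and 2.84 in young GFP-positive samples and 3.02, 2.98 and 2.73 in young GFP-negative samples. All 3 groups overlapped, at low values (2.66 to 3.52) that cannot be told from no expression. The young difference was 0.18 with a 95% interval from -0.27 to 0.63 (limma, adjusted p = 0.556).

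Ccl3 and Ccl4 encode the macrophage inflammatory proteins 1 alpha and 1 beta, which attract monocytes and T cells, and are neighbours on chromosome 11. Ccl3 had 5.74, 6.22, 6.17 and 6.01 in old GFP-positive samples, 5.77, 5.87 and 7.57 in young GFP-positive samples and 10.68, 10.15 and 10.92 in young GFP-negative samples. As with Il1a, young GFP-positive replicate 3 was the highest GFP-positive sample. The young means were 6.40 ± 1.01 in GFP-positive and 10.58 ± 0.39 in GFP-negative cells (SD, n = 3 each), 18.1-fold lower in the GFP-positive ones (limma, adjusted p = 2.64e-05). Ccl4 had 5.997, 5.85, 5.91 and 5.64 in old GFP-positive samples, 5.67, 5.61 and 6.12 in young GFP-positive samples and 8.13, 7.76 and 8.13 in young GFP-negative samples, and its young difference was -2.21 (limma, SE 0.17, adjusted p = 5.12e-06). The GFP-negative samples were again apart from both GFP-positive groups.

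Ccl2 and Ccl12 encode monocyte chemoattractants that act on the receptor Ccr2. Ccl12 had 4.62, 4.85, 4.72 and 4.93 in old GFP-positive samples, 4.39, 4.51 and 4.90 in young GFP-positive samples and 8.24, 7.94 and 8.10 in young GFP-negative samples. It had little spread in any group, and its young difference of -3.49 (SE 0.15) had the smallest adjusted p of the 10 genes (limma, 2.01e-07). Ccl2 had 6.14, 6.60, 6.55 and 6.17 in old GFP-positive samples, 6.09, 6.29 and 6.46 in young GFP-positive samples and 7.93, 7.81 and 7.10 in young GFP-negative samples. The GFP-negative sample of the 4-month-old mouse was the lowest of its group and still above all GFP-positive ones, and the young difference was -1.33 (limma, SE 0.22, adjusted p = 0.00133).

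Cxcl2 encodes a chemokine that draws neutrophils through the receptor Cxcr2. It had 4.66, 4.64, 4.92 and 4.52 in old GFP-positive samples, 4.35, 4.63 and 5.00 in young GFP-positive samples and 5.85, 6.42 and 6.79 in young GFP-negative samples, and its young difference was -1.69 (limma, SE 0.23, adjusted p = 0.000357). Ccl5 encodes RANTES, a chemokine of T cells and monocytes. It had 7.12, 6.99, 7.23 and 6.95 in old GFP-positive samples, 7.18, 6.84 and 6.98 in young GFP-positive samples and 7.09, 6.87 and 7.77 in young GFP-negative samples. Apart from young GFP-negative replicate 3, which was the highest, the groups covered the same range. The young difference of Ccl5 was -0.24, with a 95% interval from -0.69 to 0.21 (limma, adjusted p = 0.437).

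**Figure D1:**
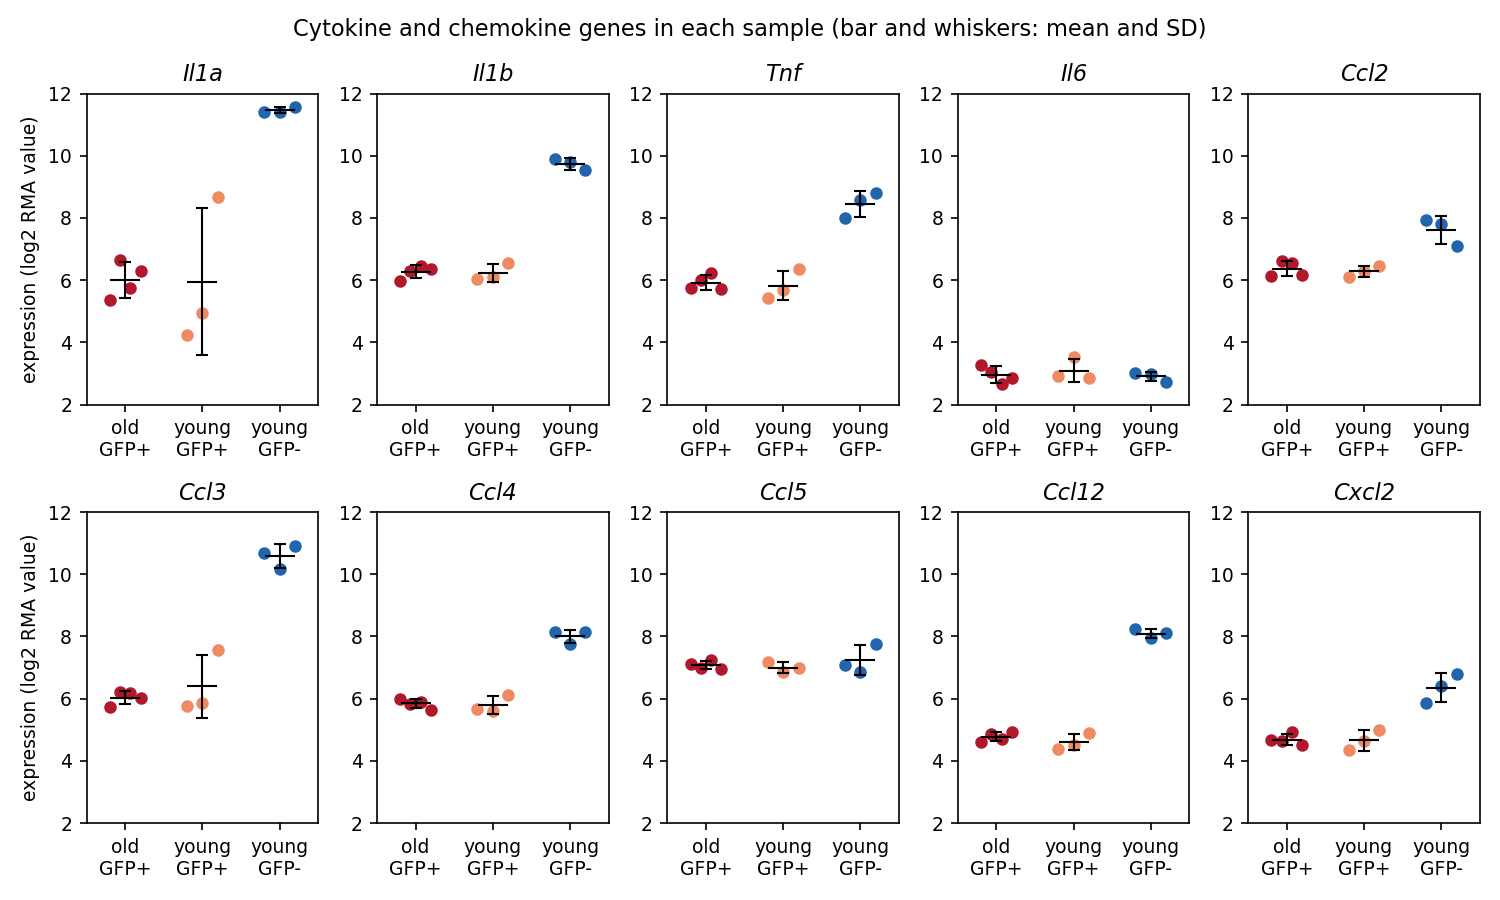
Expression (log2 RMA value) of the 10 genes in each sample of old GFP-positive, young GFP-positive and young GFP-negative cells, with a point per sample and the mean and SD in black. For 8 genes the 3 GFP-negative points lie above all 7 GFP-positive points, and Il6 and Ccl5 overlap in all groups.

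Markers of several cell types moved with these genes. In the same comparison 15 of 16 microglia markers were lower in GFP-positive cells, at a median of -3.09, and the mean of the list lay between 6.12 and 6.698 in young GFP-positive and between 9.02 and 9.61 in young GFP-negative samples. Csf1r, the receptor microglia need to survive, was lower by 21.4-fold, Cx3cr1 by 11.4-fold and Aif1 by 20.7-fold. Immediate early and dissociation response genes were lower for 9 of 15, with list means from 8.13 to 9.39 in young GFP-positive and from 9.96 to 10.13 in young GFP-negative samples. Markers of mature oligodendrocytes were lower for 8 of 8 (median -2.58), with list means from 8.02 to 8.78 in young GFP-positive and from 10.75 to 11.21 in young GFP-negative samples. Endothelial markers were lower for 9 of 9 (median -2.20), with list means from 5.67 to 6.29 in young GFP-positive and from 7.33 to 9.07 in young GFP-negative samples. Markers of oligodendrocyte precursors were lower for 6 of 6 (median -1.39), with list means from 7.04 to 7.55 in young GFP-positive and from 8.66 to 9.29 in young GFP-negative samples. Markers of mural cells and fibroblasts were lower for 4 of 9 and higher for 1. Those of border and blood macrophages were lower for 1 of 10, of granulocytes and mast cells for 2 of 9, and of T, NK and B cells for 0 of 9 (1 higher). The part of these cell types and of the dissociation response in the cytokine result was not tested. In sorted bulk samples, fewer cells of a type and less RNA per cell cannot be told apart.

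Among the 7 GFP-positive samples, young replicate 3 was the highest for 6 of the 10 genes (Il1a, Il1b, Tnf, Ccl3, Ccl4 and Cxcl2) and for 11 of 16 microglia markers, where it was the highest for 13.5% of all genes. Csf1r had 7.17 in that sample and between 5.74 and 6.26 in the other 6. That sample was also the highest of the 7 in the mean of the markers of mature oligodendrocytes (8.78, against 7.85 to 8.43 in the others), of oligodendrocyte precursors (7.55, against 7.04 to 7.28) and of mural cells and fibroblasts (6.65, against 6.16 to 6.55). The same held for stem and progenitor markers (7.80, against 7.58 to 7.78) and erythroid markers (6.41, against 5.57 to 6.39). For endothelial markers it had 6.28, against 6.29 in young replicate 2. For astrocyte markers it was the lowest (10.49, against 10.71 to 10.96), and in the remaining marker lists it was not the highest. Young replicate 1 was the lowest of the 7 for Il1a, Tnf, Ccl2, Ccl12 and Cxcl2, and the matching share of all genes was not computed. Il1a lay between 4.24 and 8.66 among these samples, and Il1b between 5.97 and 6.57.

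**Figure D2:**
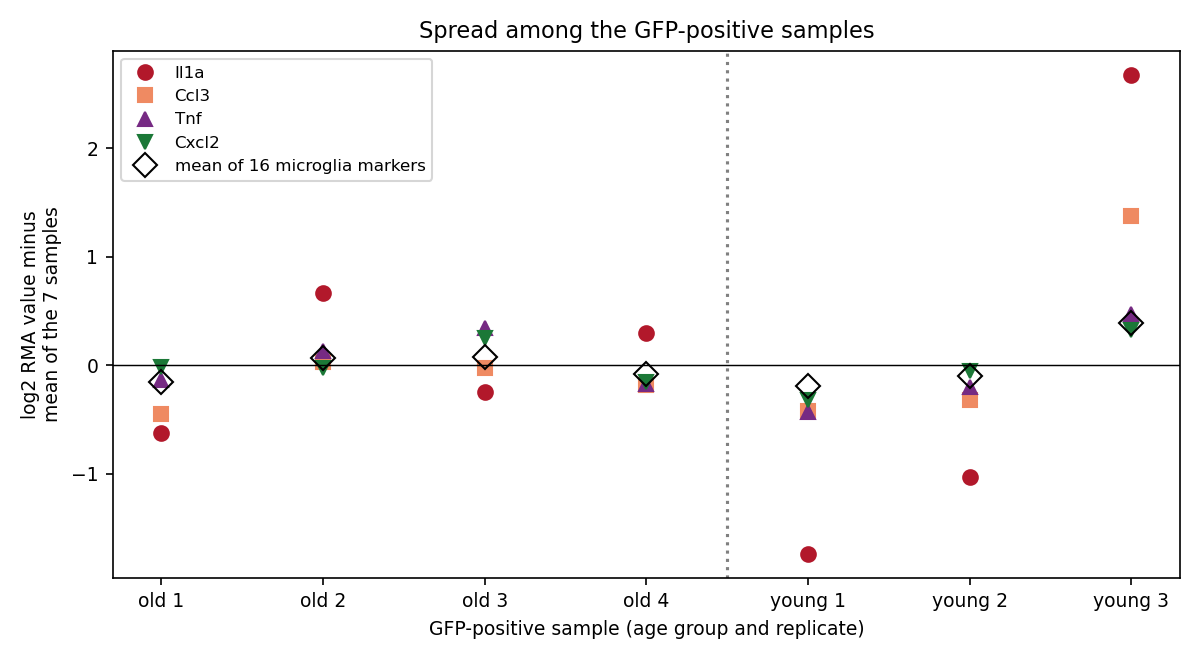
Deviation of each of the 7 GFP-positive samples from their mean (log2 RMA value) for Il1a, Ccl3, Tnf, Cxcl2 and the mean of the 16 microglia markers, with old samples left of the dotted line and young samples right of it. Young replicate 3 is the highest for all 5 series, and Il1a has the widest spread.

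As a description of likeness, the profiles of the other genes whose mean over all 10 samples reached the median of these means (9977 genes) were correlated with each member over these 7 samples. Most like Ccl3 were C1qb (Pearson r = 0.99), a complement gene that microglia express, Tnr (0.98), a matrix glycoprotein gene of the oligodendrocyte lineage, and Cpne6 (0.98). Ccl4 was most like Slc25a37 (0.98), Il18bp (0.96) and Gpr84 (0.96), a receptor that microglia induce in inflammation. Il1a was most like Cpeb1 (0.97), Lrrn1 (0.97) and Klhl17 (0.96), and Il1b was most like Fa2h (0.98), an enzyme of myelin lipid synthesis, Tmem159 (0.96) and Cygb (0.96). Values for Tnf were led by Mir346 (0.99), Mir338 (0.98) and Mir27a (0.98), for Ccl2 by Rc3h2 (0.98), Eml2 (0.97) and Zfp524 (0.97), and for Cxcl2 by Dusp14 (0.97), Rnf122 (0.97) and Kmt5c (0.96). Those for Ccl12 were led by Gpatch4 (0.97), Alms1 (0.94) and Qtrt2 (0.94), for Ccl5 by Hdac5 (0.97), Vangl1 (0.96) and Pclo (0.96), and for Il6 by Rnf113a2 (0.98), Tsc2 (0.98) and Nudt3 (0.97). Gpr84 (5.83 to 6.42) and Tmem159 (5.85 to 6.53) lay below the required mean of 6.60 in all 7 correlated samples and met it only through the GFP-negative ones. Tnr (5.64 to 6.65) and C1qb (6.20 to 6.94) also had values below 6.60 among these samples. Both were lower in young GFP-positive than in young GFP-negative cells (log2 differences -3.10 and -1.97), so the GFP-negative samples raised their means as well. Each r rests on the same 7 samples, with young replicate 3 an extreme for 6 of the members, and is given as a description only.

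The second comparison asked whether the genes differ with age in GFP-positive cells. None of the 10 passed the test between old and young GFP-positive cells (limma, 0 of 10, and 0 of 10 at an unadjusted p under 0.05), where 0.0150% of all genes did, 3 in all, and 10.2% had an unadjusted p under 0.05. The adjusted p of the members lay between 0.653 and 0.984, and the old and young values overlapped for all 10, as against 10.9% of all genes whose groups did not overlap. The largest difference was that of Ccl3 (-0.37), followed by Ccl12 (0.18) and Il6 (-0.13). The 95% intervals show what the data leave room for: from -0.33 to 0.39 for Il1b, from -0.44 to 0.63 for Tnf, from -0.13 to 0.49 for Ccl12, but from -1.72 to 1.83 for Il1a. The GFP-positive values of Il1b (5.97 to 6.57), Tnf (5.44 to 6.35) and Ccl12 (4.39 to 4.93) come with no detection call. If they are background, these intervals bound array signal and not a change in expression. Without young GFP-positive replicate 3 the Il1a difference was 1.41 (adjusted p = 0.285) in place of 0.054, and that of Ccl3 0.21 (adjusted p = 0.692). The old GFP-positive values of 8 genes, those that were lower in the young sort, were also all below the young GFP-negative values, as were those of 16.0% of all genes. Age and fraction cannot be told apart in that pair of groups.

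The mean of the microglia markers lay between 6.15 and 6.39 in old and between 6.12 and 6.698 in young GFP-positive samples, with 0 of 16 past the test. Immediate early and dissociation response genes had a median age difference of -0.76, with list means from 7.54 to 8.29 in old and from 8.13 to 9.39 in young GFP-positive samples, and 8 of 15 had an unadjusted p under 0.05. Of these 15 genes 1 was lower in old cells, the stress-induced factor Atf3, singled out after its values were seen, with 6.87, 6.73, 6.93 and 7.06 in old and 7.83, 8.41 and 8.09 in young GFP-positive samples (limma, log2 difference -1.21, adjusted p = 0.0368). No gene of the whole table, Atf3 included, passed when only the compared groups were fitted, with trend and robust moderation, after quantile normalization or with the replicate number as a block. The same held without old replicate 1 or 2, without young GFP-positive replicate 2 or 3, and without any 1 of the 3 young GFP-negative samples. Without old replicate 3, the sample with the female pattern, 2 genes passed, each higher in old cells, so Atf3 was not among them.

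**Figure D3:**
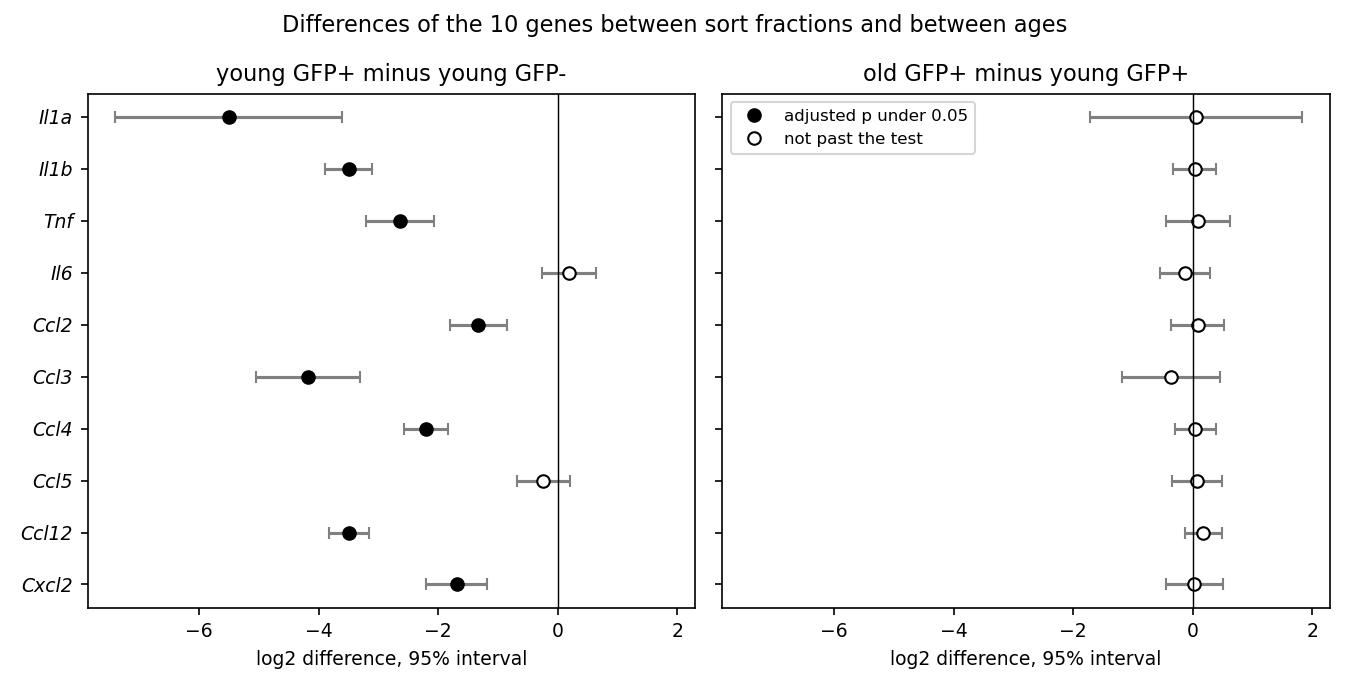
Log2 differences of the 10 genes with 95% intervals from limma, for young GFP-positive minus young GFP-negative cells (left) and old minus young GFP-positive cells (right), filled where the adjusted p is under 0.05. In the sort panel 8 genes lie between -5.51 and -1.33, and in the age panel all 10 lie between -0.37 and 0.18.

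Receptors for these signals did not share 1 pattern in the sort comparison (log2 differences of GFP-positive minus GFP-negative, limma). Il1rap, the shared co-receptor of interleukin 1, was lower (-2.17, adjusted p = 5.94e-05), while the signalling receptor Il1r1 had 0.81 (adjusted p = 0.226) and the decoy receptor Il1r2 -0.38 (0.133). Of the tumour necrosis factor receptors, Tnfrsf1b, typical of immune cells, was lower (-0.64, 0.0416) and the widely used Tnfrsf1a had 0.12 (0.676). Il6ra, the interleukin 6 receptor, was lower (-0.61, 0.00585), and its signalling partner Il6st had -0.44 (0.203). The chemokine receptors Ccr1 (-0.15, 0.420), Ccr2 (-0.001, 0.997) and Cxcr2 (-0.38, 0.152) did not pass.

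Of the interleukin 1 family and inflammasome list, 9 of 21 genes were lower and 2 higher in GFP-positive cells, with a median of -0.38. The sensor Nlrp3 (-3.16, adjusted p = 2.16e-07) and the inflammatory caspases Casp4 (-2.92, 2.12e-05) and Casp1 (-2.28, 2.79e-05) had the smallest p. Of 14 genes of tumour necrosis factor signalling 5 were lower and 0 higher (median -0.057), with the kinase Map3k8 (-1.61, 0.000293), the inhibitor of apoptosis Birc3 (-1.29, 0.00191) and Adam17 (-0.93, 0.0150), the protease that sheds tumour necrosis factor. The interleukin 6 family list had 3 of 15 lower and 3 higher (median 0.025), led by Cntfr (1.71, 5.94e-05), the ciliary neurotrophic factor receptor, Il6ra and the feedback inhibitor Socs3 (-0.94, 0.00952). Of 20 NF-kappaB factors and inhibitors 10 were lower and 0 higher (median -0.52), with Tnfaip3 (-3.11, 1.19e-06) and Cyld (-1.01, 6.40e-05), both deubiquitinases that damp the pathway, and the subunit Rel (-2.79, 5.29e-05).

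The wider chemokine and cytokine lists are read beside 9.30% of all genes lower and 7.68% higher. Of 27 other chemokine ligands 8 were lower and 1 higher (median 0.083). The higher one was Cxcl14 (2.39, limma adjusted p = 7.80e-06), with 9.84, 9.93 and 9.13 in young GFP-positive and 7.31, 7.19 and 7.24 in young GFP-negative samples. The membrane-bound chemokine gene Cxcl16 (-1.87, 0.000950) and Ccl6 (-0.90, 0.00115) were lower. Of 23 chemokine receptors 5 were lower and 1 higher (median 0.063), with Ccrl2 (-3.19, 2.30e-06), Cx3cr1 and Ackr3 (-1.12, 0.00232) in front. Of 22 other cytokines 2 were lower, Tgfb1 (-1.08, 5.35e-05) and Csf1 (-0.80, 0.00858), and 1 higher, Csf2 (0.36, 0.0473), with a median of 0.077. Of 17 other early inflammatory genes 9 were lower and 1 higher (median -1.08): the endotoxin co-receptor Cd14 (-3.41, 8.11e-07) and Gpr84 (-2.71, 2.07e-06) were lower, and Vcam1 (2.28, 2.19e-06), an adhesion molecule that astrocytes and stem cells also make, was higher. These medians stand beside 0.098 for all genes and -3.09 for the microglia markers. The part of microglia in the values of these lists was not tested.

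**Figure D4:**
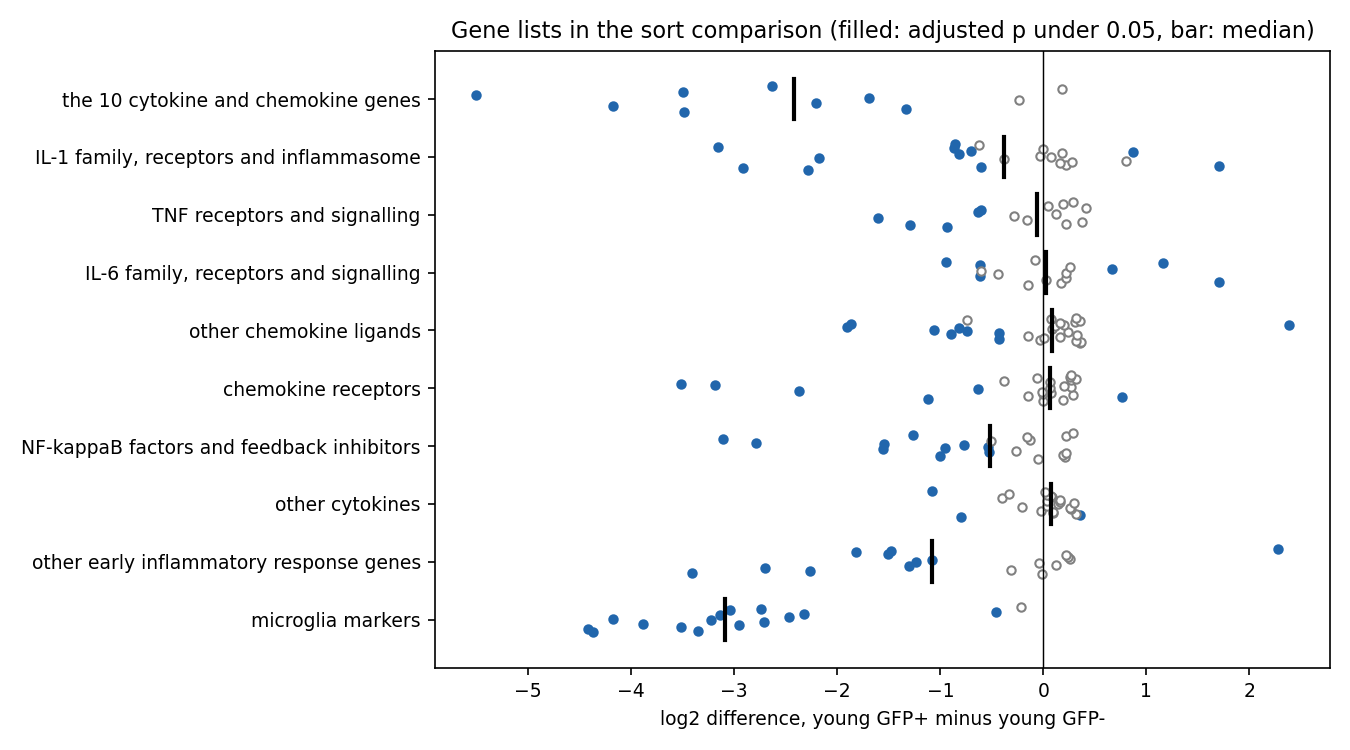
Log2 differences of young GFP-positive minus young GFP-negative cells for the 10 genes, 8 related lists and the microglia markers, with a point per gene, filled where the adjusted p is under 0.05, and a bar at the median. The 10 genes have a median of -2.42 and the microglia markers one of -3.09, while the other chemokine ligands, chemokine receptors and other cytokines centre near 0.

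With age, 0 genes of these 8 lists passed the test (limma). The smallest unadjusted p in each of the 4 lists that had one under 0.05 were those of the NF-kappaB inhibitor Nfkbia (-0.50, unadjusted p = 0.0137), Csf3 (0.29, 0.0199), the chemokine receptor Cxcr4 (-0.64, 0.0202) and Il6ra (0.27, 0.0426). An unadjusted p under 0.05 was found for 3 of 22 other cytokines, 2 of 23 chemokine receptors, 1 of 20 NF-kappaB genes and 1 of 15 genes of the interleukin 6 family, and for 0 in the other 4 lists, beside 10.2% of all genes. Their adjusted p lay between 0.388 and 0.473.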

How the data were processed

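Expression was measured on 10 arrays. The authors deposited log2 values made by RMA, per the submitters' processing notes, with probes regrouped by RefSeq transcript of mm9 and 1 array of a young mouse left out, per the series description. No RMA version was given. RMA sets all arrays to the same distribution, so differences in total signal are lost. The number of arrays limits the precision. Array medians lay between 6.54 and 6.66, and r across genes between arrays of 1 group was 0.967 to 0.986.

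Of 31672 probe sets, 24590 matched 1 symbol by unversioned accession in a RefSeq table of GRCm38.p6, used for names and promoter sequences, 0 matched several and 7082 none. The brightest probe set stood for a gene, which left 19965 genes. The test was the moderated, two-sided one of limma 3.58.1 (lmFit, then eBayes; R 4.3.3). A single model with a mean for each of the 3 groups took in all 10 samples and left 7 residual degrees of freedom, to which moderation added 4.07. P-values were adjusted by Benjamini-Hochberg over the whole table, with 0.05 as the threshold. Intervals are 95% intervals of that fit, and SE is its moderated standard error. The fit was tested on simulated data. The SAM test that the submitters name was not run. Samples were grouped by their titles, which call them biological replicates, and the titles' ages were followed where the series description gives 5 to 7 months for young mice.

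The members and lists were chosen with earlier results of these data known. Named beside the members were their receptors (1 is not reported here), the 3 genes with the smallest p of each list in either comparison, the 3 genes most like each member and markers of the cell type lists. Ttr, Xist, Atf3 and the chromosomal neighbours were added after values were seen. Age values of the lists are summarised, with 1 gene named for each list that had an unadjusted p under 0.05. Alternatives were the samples in the fit, variance moderation, array weights, filters on dim genes, quantile normalization, probe set choice, a replicate block, age as covariate and left-out samples. Plots used matplotlib 3.10.9 (Python 3.11.15).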

Additional observations from a re-analysis of the deposited data

How the results depend on the processing

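The 8 members lower in the sort comparison kept direction and call in 171 of 171 recomputed values over 22 settings. The count was 8 except where dim genes were left out: 6 without the dimmest genes and 5 without all genes below the median level, where fewer members were tested. In several of these settings the difference itself could not change, so only the call was tried there. They are the fit of only the compared groups, variance moderation, dim-gene filters, probe set choice and the replicate block. The same holds for leaving out an old sample. Of all genes, 3390 passed in the sort comparison, against 5736 with array weights, 5242 over all probe sets, 1841 without both young number 1 samples and 2393 to 3600 with 1 sample left out. The cause was not tested. Il6 ranged from -0.032 to 0.308 and Ccl5 from -0.428 to 0.0232 with 1 sample left out, and Ccl5 had 0.0322 without both samples of 4-month-old mice.

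In the age comparison 0 of 203 recomputed member values passed the test over 21 settings, and 30 changed sign. The difference could not change with only the compared groups fitted, variance moderation, dim-gene filters or probe set choice, or without a GFP-negative sample. Some settings also repeat each other. Leaving out both young number 1 samples, or both of 4-month-old mice, gave the differences seen without young GFP-positive replicate 1 or 3. The replicate block gave those seen without old replicate 4. With 1 sample left out, Il1a ranged from -0.80 to 1.41, Il1b from -0.0637 to 0.197, Tnf from -0.10 to 0.36, Il6 from -0.25 to 0.0873, Ccl2 from -0.0140 to 0.17, Ccl3 from -0.69 to 0.21, Ccl4 from -0.0497 to 0.20, Ccl5 from -0.0077 to 0.16 and Cxcl2 from -0.13 to 0.20. After quantile normalization Il1a had -0.0517, Il1b -0.0152, Ccl4 -0.0223 and Cxcl2 -0.0832. Without both young number 1 samples the values were -0.80 for Il1a, -0.0637 for Il1b, -0.10 for Tnf, -0.0140 for Ccl2, -0.0175 for Ccl4 and -0.13 for Cxcl2, and without both samples of 4-month-old mice Ccl3 had 0.21. Of all genes, 3 passed, against 0 with only the groups compared in the fit, 0 with trend and robust moderation, 20 with array weights, 9 without genes below the median level, 0 after quantile normalization, 5 with the mean over probe sets, 8 over all probe sets, 5 without both young number 1 samples, 1 without both samples of 4-month-old mice and 0 to 9 with 1 sample left out.

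Same-numbered young samples of both fractions deviated from their group means with r = 0.12, 0.02 and 0.19, and other-numbered ones with r from -0.18 to 0.08. Replicate 2 was aged 5 months in the GFP-positive and 7 months in the GFP-negative fraction. The numbers were therefore not taken to pair all samples. With the replicate number as a block, 8 members and 2824 of all genes passed in the sort comparison and 0 genes in the age comparison, where Il1a had -0.0373. With 3 or 4 arrays a group and no detection calls, small differences are not resolved.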

Other observations

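The neighbours of these genes on the chromosome did not all follow them in the sort comparison (log2 differences of young GFP-positive minus young GFP-negative cells, limma). Next to Tnf on chromosome 17, the lymphotoxin genes Lta and Ltb, of the same cytokine family, had 0.22 (adjusted p = 0.331) and 0.37 (adjusted p = 0.0804). Next to Cxcl2 on chromosome 5, Cxcl1, which acts on the same receptor, had 0.083 (adjusted p = 0.774). Ccl11 and Ccl8, on either side of Ccl12 on chromosome 11, had 0.36 (adjusted p = 0.0510) and 0.24 (adjusted p = 0.404). Ccl7, beside Ccl2, was lower (-0.43, adjusted p = 0.0188), as were Ccl6, beside Ccl3 (-0.90, adjusted p = 0.00115), and Ccl9, beside Ccl5 (-0.74, adjusted p = 0.0148). Outside the interleukin 1 pair on chromosome 2, Ckap2l had -0.04 (adjusted p = 0.901) and F830045P16Rik 0.28 (adjusted p = 0.164). Differences between neighbours were not tested.

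Of the genes in the 8 related lists, Cxcl14, Vcam1, Cntfr and Il18 were higher in GFP-positive cells by 1.70 or more on the log2 scale. Il18, of the interleukin 1 family, had 9.37, 9.65, 9.31 and 9.84 in old GFP-positive, 9.89, 9.75 and 9.62 in young GFP-positive and 7.83, 7.85 and 8.47 in young GFP-negative samples. Its young difference was 1.70 (limma, adjusted p = 9.78e-05), opposite in sign to those of Il1a and Il1b, and its age difference -0.21 (adjusted p = 0.677). These 4 genes were picked out after their values were seen.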
